A study of Homo sapiens with 15 samples.

Results

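H1299 cells given 5 mM glucose and 4 mM NH4Cl for 12 h in serum-free RPMI medium were compared with cells kept as long in the same medium holding no glucose and no glutamine. H1299 is an established cell line from a non-small cell lung carcinoma, grown from a lymph node deposit according to the labels. Glutamine was absent from both media, so the media differed by glucose and by NH4Cl, a salt that supplies ammonium, together. The labels do not give other carbon sources of the medium, such as pyruvate. The comparison uses 6 of the 15 libraries of the series, 3 for each medium, and all 16889 genes that passed a low-count filter. The other 9 libraries came from cells given 5 mM glucose alone, 4 mM glutamine alone, or both. All cells had first spent a day in full medium with 5% serum, and every later medium lacked serum. The labels speak of triplicate cells of 1 line and name no day or batch. All p-values thus rest on the spread among these libraries, and that spread may be technical.

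Glucose feeds glycolysis, the pentose phosphate pathway and the sugar chains of glycoproteins, while glutamine supplies nitrogen and refills the tricarboxylic acid (TCA) cycle. Cells that lack both can run low on energy and on correctly folded protein. Known answers to such stress are heat shock factors, which raise chaperones, and ATF4, which raises genes of amino acid supply. Energy and protein folding were not measured here, and most ATF4 genes were lower without nutrients than with glucose and NH4Cl. Ammonium is a waste product of glutamine breakdown. It is known to enter lysosomes and to raise their pH, and has been linked to the activation of SREBP factors, which drive sterol and fatty acid synthesis.

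Libraries held 14914127 to 18816188 counted reads, so 3 counts, taken as the floor, stood for 0.159 to 0.201 CPM, the usual unit of counts divided by library size. Levels below are CPM with each library size scaled by TMM, whereas the floors are unscaled. The 10 most counted genes took 5.85% ± 0.0212 of the counts with glucose and NH4Cl and 12.4% ± 0.0465 without nutrients (SD, n = 3), and the cytosolic heat shock genes alone took 1.08% and 9.55%. These shares did not overlap, and the exact permutation test gave p = 0.1, the smallest that 3 against 3 libraries allow. TMM factors were 0.793 to 0.794 without nutrients and 1.078 to 1.083 with glucose and NH4Cl. Counts and medians of gene lists and most log2 changes against no nutrients are therefore given under TMM and under library totals, which place the median of all genes 0.444 higher on the log2 scale. Comparisons with the other media are given under TMM. There library totals moved the median of the 46 lists by at most 0.0109 against glucose alone and 0.00348 against glucose with glutamine, and the higher or lower count of a list by at most 4 genes and 1 gene. Vimentin and epithelial keratins, the markers chosen for this line, summed to 2340 to 2354 CPM with glucose and NH4Cl and to 3919 to 3962 CPM without nutrients. Summed levels in any library reached at most 4.69 CPM for 9 fibroblast markers, 15.6 CPM for 7 endothelial markers, 14.5 CPM for 10 leukocyte markers and 4.17 CPM for 10 lung lineage markers. CD3D was at 0 in all 6 libraries, and CDH1 and EPCAM were too low to be tested. In bulk samples fewer cells of a type and less RNA per cell cannot be told apart.

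Most genes of cytosolic chaperones, the proteasome, DNA replication and glycolysis were lower with glucose and NH4Cl. Most genes of the ATF4 response and of sterol synthesis, most mitochondrially encoded genes and the nuclear RNA NEAT1 were higher. Under TMM 13090 of 16889 genes passed the test (77.5%), 6686 higher (39.6% of those tested) and 6404 lower (37.9%), with a median log2 change over all genes of 0.04. Under library totals 13597 passed (80.5%), 10270 higher (60.8%) and 3327 lower (19.7%), and the median was 0.49. Counts and medians of each list below are to be read beside these shares and medians of all genes. TMM placed 51.1% of the calls higher and library totals 75.5%. At 2-fold or more, 2824 genes were higher (16.7%) and 1562 lower (9.25%) under TMM, against 4883 higher (28.9%) and 598 lower (3.54%) under library totals. The same direction held under both scalings for 10013 genes, 6686 higher and 3327 lower. Calls conflicted for 1247 genes, each lower under TMM and higher under library totals. Genes are called at an edgeR adjusted p under 0.05, and single genes said to have risen or fallen were called the same way under both scalings. Many named genes were picked for a large change without overlap between the media, or for a small p. Remarks below that their libraries do not overlap are therefore no further support. Levels are means ± SD of 3 libraries in CPM unless each library is given, the error behind a log2 change is its standard error (SE), and values with no scaling named are under TMM. Where the span of a named gene, from its start to its end on either strand, shares positions with another gene, its counts are taken as uncertain. Whether exons overlap was not examined. The same holds for SREBF1 (RAI1), HK2 (HK2-DT), GLUD1 (SHLD2), LONP1 (RPL36), MCM2 (TPRA1), TXNRD1, NFE2L2 (AGPS), FADS1 (FADS2), NDUFS1 (EEF1B2), PRC1 and CDC25C.

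Short, abundant messages were lower and long or rarely counted ones higher. Among 7603 protein-coding genes at 20 CPM or more, the median log2 change under TMM was -0.62 for summed exon lengths of 207 to 2980 bases and 0.26 for 9367 to 46064 bases, and under library totals it was -0.18 and 0.71. Across those genes, which are not independent replicates, Spearman's rho between length and change was 0.41. Medians ran from 0.75 in the tenth of genes with the lowest levels to -0.46 in the tenth with the highest under TMM, and from 1.18 to -0.02 under library totals. Long intergenic noncoding RNAs (779 genes) had a median of 0.75, antisense genes (918) 0.74 and processed pseudogenes (847) -0.57 under TMM, beside -0.04 for 13199 protein-coding genes. Under library totals these medians were 1.195, 1.18, -0.13 and 0.41. Shares of counts moved likewise, with 0.664% ± 0.00200 against 0.295% ± 0.00348 for long intergenic RNAs. The part of RNA quality, or of length itself, in the results on lists of short genes was not tested. Between glucose with NH4Cl and glucose alone the same length groups had medians of 0.04 and -0.08.

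**Figure D1:**
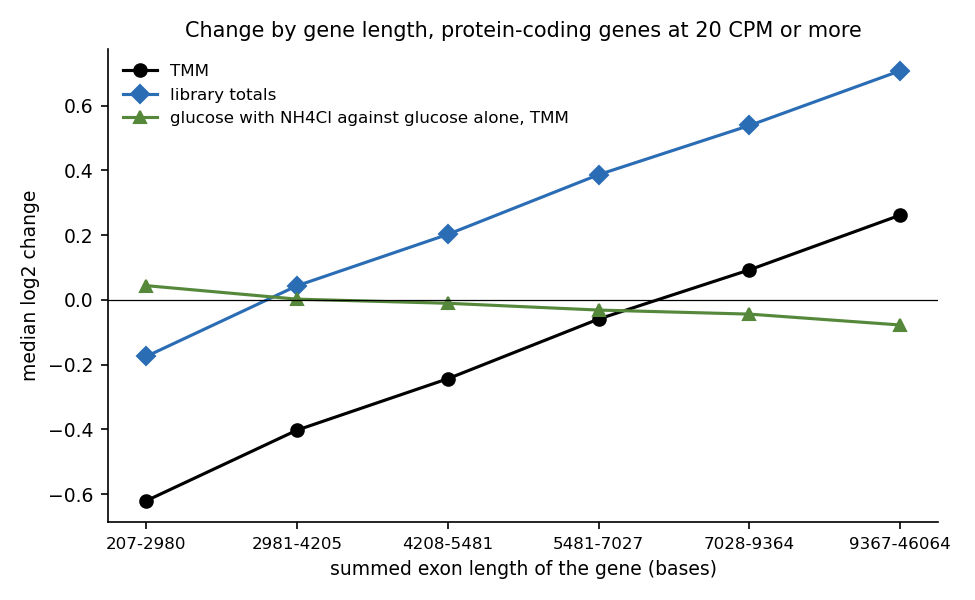
Median log2 change (vertical axis) of protein-coding genes at 20 CPM or more in 6 groups of summed exon length (horizontal axis, bases). Black circles give glucose with NH4Cl against neither nutrient under TMM, rising from -0.62 to 0.26, blue diamonds the same under library totals, and green triangles glucose with NH4Cl against glucose alone, which stay between 0.04 and -0.08.

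The largest falls among genes at a mean of 5 CPM or more were in heat shock genes, which encode the chaperones that refold damaged protein. Of 44 tested members of the cytosolic heat shock list, 41 were lower and 3 higher under TMM (37.9% and 39.6% of all genes), with a median log2 change of -1.38 beside 0.04 over all genes, and 37 were lower and 5 higher under library totals, with a median of -0.93 beside 0.49. HSPA6, a strictly inducible HSP70, stood at 2563, 2673 and 2653 CPM without nutrients and at 1.41, 0.689 and 1.12 CPM with glucose and NH4Cl. Its counts with NH4Cl were 23, 12 and 18, and the level without nutrients was higher by a ratio of 2466 (95% exact interval 1885 to 3292), where the interval covers counting error only. HSPA7, which is nearly a copy of HSPA6, went from 139, 146 and 142 CPM to 0, 2 and 2 counts, which is under the floor.

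The inducible HSP70 gene HSPA1A (chr6:31815464-31817946, GRCh38) was at 24527, 25069.8 and 25562 CPM without nutrients and 64.4, 61.5 and 61.9 CPM with glucose and NH4Cl. Its near-identical neighbour HSPA1B had 23381, 23886 and 23309.6 and 61.4, 61.8 and 62.5 CPM, and reads may be split between them. Log2 changes were -8.64 ± 0.03 (SE) and -8.57 ± 0.03 under TMM and -8.2 and -8.12 under library totals. DNAJB1, an HSP40 that feeds clients to HSP70, fell from 8725, 8781 and 8811 CPM to 161, 158 and 162 CPM (log2 -5.77 ± 0.02, edgeR adjusted p = 1.82e-244; library totals -5.33). BAG3, which couples HSP70 to autophagy, fell from 1670.2, 1652 and 1673 to 49.9, 49.1 and 48.1 CPM (log2 -5.09 ± 0.03, library totals -4.64). In each of these genes the 3 libraries of one medium lay far from the 3 of the other, which the naming rule required of the largest falls.

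HSPA8 and the HSP90 genes, among the most abundant chaperones, fell by smaller amounts. HSPA8, the housekeeping HSP70, was at 10978 ± 168 CPM (SD, n = 3) without nutrients and 1155 ± 8.29 CPM with glucose and NH4Cl. HSP90AA1, the inducible HSP90, went from 24644 ± 145 to 1967 ± 13.7 CPM (log2 -3.65 ± 0.01, library totals -3.2), and HSP90AB1, the constitutive one, from 10246 ± 99.7 to 2834 ± 11.3 CPM. Processed copies of the HSP90 and HSPA8 genes can take some of their reads. DNAJB2, a neuronal HSP40, rose from 47.2 ± 1.302 to 98.7 ± 2.92 CPM, and so did AHSA2P, a relative of an HSP90 cochaperone, from 18.4 ± 1.57 to 30.6 ± 0.189 CPM, though it overlaps USP34.

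Of 36 heat shock genes in the RefSeq promoter table, 7 hold a trimer of the heat shock element within 250 bases before to 50 after a start, which is 19.4%. That compares with 0.608% of the 27305 genes in the table. The search took GAA, TTC and GAA, or TTC, GAA and TTC, each 2 bases apart, on both strands, and the genes were CHORDC1, DNAJA1, DNAJB6, HSP90AA1, HSP90AB1, HSPA6 and HSPA8. Windows of an inducible HSP70, an HSP40 and an HSP90 are shown because they stand for 3 chaperone families that fell, with the trimer in capitals, 5′ to 3′ on the gene's strand. They lie at chr1:161524290-161524589 (+), chr9:33025023-33025322 (+) and chr14:102086995-102087294 (-) in GRCh38.p14.
HSPA6: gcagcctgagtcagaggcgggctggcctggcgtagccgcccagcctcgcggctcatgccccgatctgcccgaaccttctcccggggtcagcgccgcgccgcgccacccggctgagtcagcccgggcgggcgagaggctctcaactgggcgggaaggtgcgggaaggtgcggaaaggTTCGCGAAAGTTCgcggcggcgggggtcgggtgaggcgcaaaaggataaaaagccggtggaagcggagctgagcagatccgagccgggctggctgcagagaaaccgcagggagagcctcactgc
DNAJA1: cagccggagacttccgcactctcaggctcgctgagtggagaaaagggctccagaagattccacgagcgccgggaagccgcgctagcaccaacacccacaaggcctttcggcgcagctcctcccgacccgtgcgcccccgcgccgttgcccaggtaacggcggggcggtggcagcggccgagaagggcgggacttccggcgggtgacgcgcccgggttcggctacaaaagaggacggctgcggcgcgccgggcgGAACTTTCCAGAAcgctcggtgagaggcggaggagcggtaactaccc
HSP90AA1: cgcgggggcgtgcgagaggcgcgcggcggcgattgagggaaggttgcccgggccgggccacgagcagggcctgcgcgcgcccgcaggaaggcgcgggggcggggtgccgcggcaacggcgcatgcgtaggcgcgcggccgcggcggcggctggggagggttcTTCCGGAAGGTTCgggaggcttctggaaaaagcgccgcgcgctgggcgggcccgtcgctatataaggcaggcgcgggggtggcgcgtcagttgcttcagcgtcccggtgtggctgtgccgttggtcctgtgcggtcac
The trimer begins 74 bases before the start in HSPA6 and 88 in HSP90AA1, and 3 bases after it in DNAJA1. A match is a description and shows no binding. DNAJA1 fell from 1845 ± 2.23 to 111 ± 0.713 CPM (log2 -4.06 ± 0.02, library totals -3.62), CHORDC1, an HSP90 cochaperone, from 193 ± 6.72 to 34.3 ± 1.45 CPM, and DNAJB6, an HSP40 that restrains aggregation, from 706 ± 9.13 to 319 ± 8.95 CPM.

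**Figure D2:**
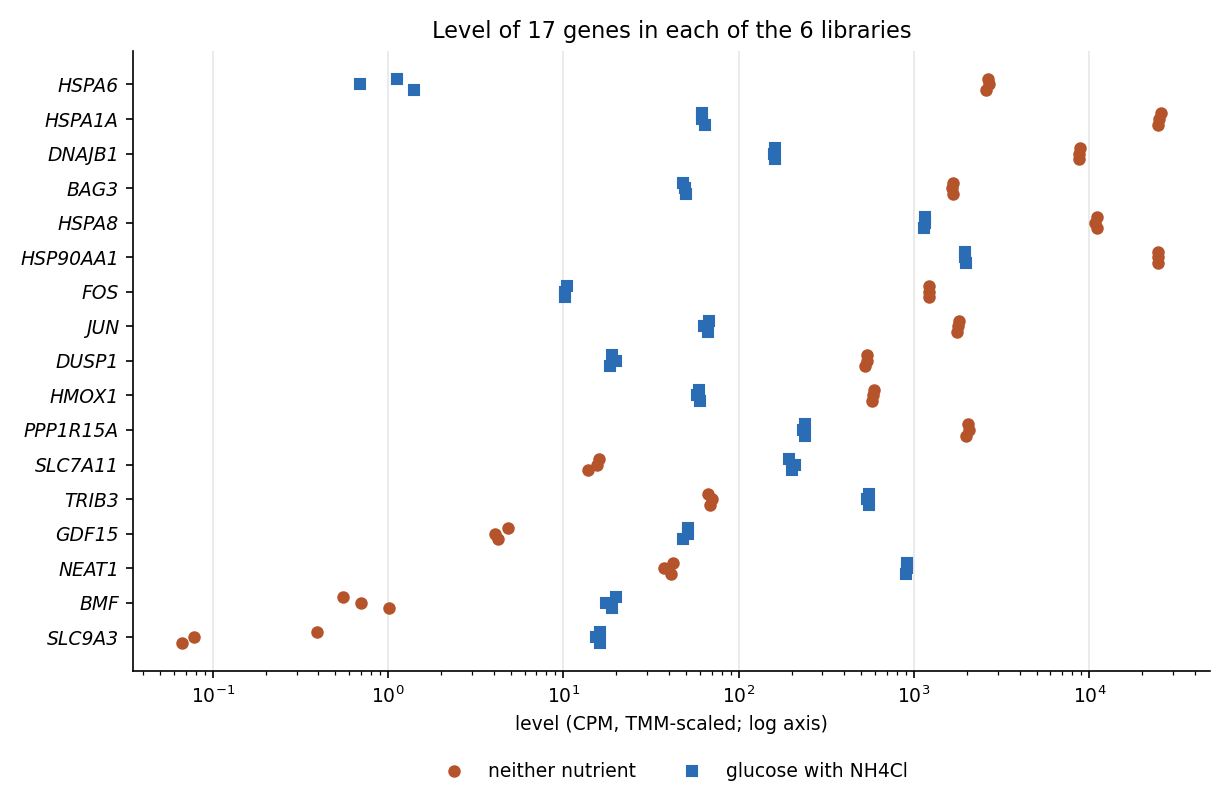
Level of 17 genes (vertical axis) in CPM on a log axis, TMM-scaled, in each of the 3 libraries without nutrients (orange circles) and the 3 with glucose and NH4Cl (blue squares). The first 11 genes, from HSPA6 to PPP1R15A, are lower with glucose and NH4Cl and the last 6, from SLC7A11 to SLC9A3, higher, with no overlap in any of them. The largest rises and falls were named only among genes without overlap, so this is no further support.

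HSF1, the factor that drives these genes, was itself lower, at 268, 278 and 279 CPM without nutrients and 153, 153 and 152 CPM with glucose and NH4Cl (log2 -0.85 ± 0.03, library totals -0.4), though its locus overlaps DGAT1. Of 7 tested genes of the heat shock factor and polyubiquitin list 6 were lower and 1 higher under both scalings, with medians of -1.11 and -0.67. DEDD2, a death effector protein, fell from 568 ± 3.07 to 62.8 ± 1.99 CPM. HSF4, a relative of HSF1 known from the lens, rose from 2.59 ± 0.2797 to 8.03 ± 0.529 CPM.

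Protein folding and degradation machines fell as whole sets. All 14 chaperonin and prefoldin subunits, which fold actin and tubulin, were lower under both scalings, with medians of -1.06 and -0.61. TCP1 fell from 1994 ± 21.02 to 667 ± 5.66 CPM, CCT5 from 1001 ± 6.204 to 332 ± 4.49 CPM and CCT3 from 1229 ± 7.05 to 482 ± 2.58 CPM. All 31 proteasome genes were lower under both scalings too, with the smallest log2 change at -0.73 under TMM and medians of -1.15 and -0.70. PSMB6, a catalytic subunit, went from 287 ± 6.17 to 71.6 ± 1.26 CPM, the ATPase PSMC4 from 743 ± 4.92 to 235 ± 4.13 CPM, and the lid and base subunits PSMD8 and PSMD2 from 769.6 ± 4.73 and 873 ± 13.6 to 279 ± 9.31 and 312 ± 3.505 CPM. Median exon lengths were 3360 bases for the chaperonin list and 4490 for the proteasome.

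Mitochondrial chaperones were mixed. Of 16, 11 were lower and 3 higher under TMM (median -0.48) and 7 were lower and 7 higher under library totals (median -0.03). HSPD1 and HSPE1, the chaperonin pair of the mitochondrial matrix, fell from 2684 ± 16.8 to 1068 ± 3.36 CPM and from 157 ± 1.93 to 25.7 ± 1.61 CPM, and these neighbours overlap. LONP1, a matrix protease, rose from 137 ± 3.16 to 190.4 ± 3.69 CPM, and the membrane protease SPG7 from 85.3 ± 2.02 to 110.2 ± 2.13 CPM.

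Heat shock genes differed little on median between glucose with and without NH4Cl. Against glucose alone, where 12.7% of all genes were higher and 16.9% lower, 9 of the 44 heat shock genes were higher and 8 lower with NH4Cl, with a median difference of -0.02. Of the 7 genes of the factor list 4 were higher and 0 lower. The heat shock share of counts was 1.03% ± 0.00329 with glucose alone. For HSPA1A the level with glucose alone was 66.1 ± 2.69 CPM and the log2 difference -0.08 ± 0.04 (SE, edgeR adjusted p = 0.091). The medium with glucose and glutamine, which shares the medium without nutrients as its control, had a median heat shock change of -0.93, beside -1.38 here. Against that medium 32 of 44 genes were lower with NH4Cl, where 33.4% of all genes were lower, and 6 were higher (31.2% of all genes).

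Immediate early genes, which respond within minutes to growth factors and stress, split. Of 32 tested, 19 were lower and 9 higher under TMM (median -0.50), and 16 were lower and 11 higher under library totals (median -0.05). FOS, a subunit of the AP-1 factor, was at 1218, 1216 and 1214 CPM without nutrients and 10.3, 10.2 and 10.4 CPM with glucose and NH4Cl (log2 -6.88 ± 0.07, library totals -6.44, edgeR adjusted p = 6.41e-209). Its partner JUN was at 1759.9, 1779 and 1815 and 66.8, 63.1 and 67.5 CPM (log2 -4.76 ± 0.03, library totals -4.32). DUSP1, a phosphatase that switches MAP kinases off, was at 527, 539.8 and 536 and 18.5, 19.99 and 18.97 CPM (log2 -4.8 ± 0.05, library totals -4.35). The groups lay far apart in all of them, but genes were named for a large change or a small p.

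FOSB fell from 427, 425 and 436 to 3.26, 4.998 and 3.36 CPM, with a log2 change of -6.78, but shares positions with ERCC1. The small genes ARC, a synaptic immediate early gene, and RASD1, a Ras relative induced by steroid, fell to 4, 6 and 6 and to 6, 3 and 6 counts, with ratios of 31.6 (95% exact interval 19.2 to 55.9) and 35.1 (95% exact interval 21.1 to 63.3). EGR1, a zinc finger factor of the growth response, fell from 590.3, 604 and 590.1 to 128, 121 and 125 CPM (log2 -2.25 ± 0.03, library totals -1.81). Of the 9 higher members, DUSP6, a phosphatase of ERK, rose from 46.5, 41.8 and 44.6 to 139, 138 and 141 CPM (log2 1.65 ± 0.04, library totals 2.1) and SPRY4, a Sprouty inhibitor of ERK signalling, from 101, 95.1 and 95.98 to 304, 304 and 293 CPM (log2 1.62 ± 0.03, library totals 2.07). EGR2, EGR3 and BTG2 passed under neither scaling, at 1.33 ± 0.224, 2.33 ± 0.393 and 1.16 ± 0.241 CPM without nutrients and 1.06 ± 0.297, 1.88 ± 0.464 and 1.27 ± 0.0388 CPM with glucose and NH4Cl.

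The CArG box, bound by serum response factor and searched as CC, 6 bases of A or T and GG, lies in the window of 3 of 25 immediate early genes (12%), EGR1, EGR2 and SRF, and of 1.6% of all genes. The window of EGR1, the member with a pair of boxes, is chr5:138465229-138465528 (+) in GRCh38.p14, with both boxes in capitals.
EGR1: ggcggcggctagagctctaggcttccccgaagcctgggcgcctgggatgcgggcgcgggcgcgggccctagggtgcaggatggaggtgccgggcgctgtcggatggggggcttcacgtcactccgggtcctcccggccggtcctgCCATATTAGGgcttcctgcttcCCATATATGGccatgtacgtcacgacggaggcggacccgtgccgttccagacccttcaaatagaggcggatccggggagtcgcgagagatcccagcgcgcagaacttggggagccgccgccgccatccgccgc
The boxes begin 105 and 83 bases before the start. Against glucose alone, 20 of the 32 genes were lower with NH4Cl and 3 higher (median -0.21), and EGR1 differed by -0.65 ± 0.03 (edgeR adjusted p = 5.25e-54). They stood higher than with glucose and glutamine in 23 cases and lower in 4 (median 0.55).

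Genes of the amino acid response driven by ATF4 rose in the main. Of 38, 31 were higher and 6 lower under TMM (median 0.97), and 32 were higher and 5 lower under library totals (median 1.42). SLC7A11, the cystine importer (chr4:138164097-138242349, GRCh38), was at 13.8, 15.5 and 15.98 CPM without nutrients and 199.9, 208 and 194 CPM with glucose and NH4Cl (log2 3.74 ± 0.06, library totals 4.19, edgeR adjusted p = 4.31e-145). TRIB3, a pseudokinase that curbs ATF4, was at 68.9, 70.2 and 67.2 and 552, 538 and 555 CPM (log2 3.00 ± 0.03, library totals 3.44). SESN2, which restrains mTORC1 when leucine is short, was at 121, 121 and 121 and 351, 356 and 363 CPM (log2 1.56 ± 0.03, library totals 2.01). All 3 libraries with glucose and NH4Cl lay above all 3 without nutrients in each gene.

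SLC38A2, a transporter of small neutral amino acids, rose from 484 ± 21.3 to 1402 ± 30.4 CPM, and ASNS, asparagine synthetase, from 10.5, 8.13 and 12.4 to 19.6, 20.2 and 18.3 CPM (log2 0.91 ± 0.09, library totals 1.35), a gene that has a processed copy. GDF15, a secreted stress factor, rose from 4.22, 4.07 and 4.803 to 48.2, 51.2 and 51.4 CPM (log2 3.53 ± 0.11, library totals 3.97), and ADM2, a peptide of the adrenomedullin family, from 4.09, 4.22 and 3.23 to 46.7, 46.7 and 50.6 CPM (log2 3.63 ± 0.12, library totals 4.08). ATF4 itself went from 523 ± 7.84 to 569 ± 1.71 CPM (log2 0.12 ± 0.02, library totals 0.57), and DDIT3, the death-linked factor CHOP, from 166 ± 3.57 to 193 ± 6.53 CPM (log2 0.22 ± 0.03, library totals 0.66), though it overlaps MARS1. PPP1R15A, which removes the phosphate from eIF2α, fell from 1975, 2048 and 2042 to 239.7, 233 and 240.04 CPM (log2 -3.09 ± 0.02, library totals -2.64), and ATF3, a repressor, from 280.2, 279.9 and 279 to 39.7, 39.6 and 41.4 CPM (log2 -2.8 ± 0.04, library totals -2.35). CHAC1, which breaks down glutathione, did not pass under TMM, at 49.2, 52.5 and 47.8 and 54.4, 50.4 and 52.7 CPM, and was higher under library totals (log2 0.52 ± 0.05).

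The site TGATGNAA, to which C/EBP and ATF pairs bind, was found on either strand in 8 of 29 of these genes (27.6%) and 4.46% of all genes. They were ASNS, ATF3, CEBPG, CHAC1, JDP2, SLC1A5, SLC3A2 and SLC7A1. Windows of a gene that rose and of the gene that did not pass under TMM are shown, at chr7:97872359-97872658 (-) and chr15:40953221-40953520 (+) in GRCh38.p14, with the site in capitals, on the opposite strand in CHAC1.
ASNS: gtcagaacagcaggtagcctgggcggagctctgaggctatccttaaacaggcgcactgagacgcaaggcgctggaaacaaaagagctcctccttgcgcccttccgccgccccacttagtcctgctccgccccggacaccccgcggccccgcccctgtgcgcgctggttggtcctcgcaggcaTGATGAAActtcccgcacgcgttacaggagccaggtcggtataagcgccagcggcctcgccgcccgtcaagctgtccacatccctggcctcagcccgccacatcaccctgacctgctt
CHAC1: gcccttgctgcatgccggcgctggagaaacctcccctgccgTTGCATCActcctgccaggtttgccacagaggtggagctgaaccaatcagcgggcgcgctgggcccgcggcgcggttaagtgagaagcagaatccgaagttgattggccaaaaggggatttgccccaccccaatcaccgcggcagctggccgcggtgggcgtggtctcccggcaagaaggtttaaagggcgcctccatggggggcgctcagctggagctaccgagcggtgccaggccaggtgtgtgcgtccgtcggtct
The site begins 68 bases before the start in ASNS and 209 in CHAC1, and the N of the pattern differs between them.

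The ATF4 genes were somewhat lower with NH4Cl than with glucose alone. There 26 of 38 were lower and 4 higher, with a median difference of -0.18. TRIB3 was at 655 ± 5.09 CPM with glucose alone, and the log2 difference with NH4Cl was -0.26 ± 0.02 (edgeR adjusted p = 1.12e-22). SESN2 differed by -0.34 ± 0.02 (edgeR adjusted p = 1.59e-30). Against glucose with glutamine 36 were higher and 1 lower (median 1.96), and TRIB3 stood at 29.7 ± 1.79 CPM there.

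Aminoacyl-tRNA synthetases, which load amino acids onto tRNA, and amino acid transporters were mixed. Of 20 synthetases 11 were higher and 8 lower under TMM (median 0.35), and 13 and 7 under library totals (0.79), which is 65% higher and 35% lower beside 60.8% and 19.7% of all genes. AARS1 rose from 299 ± 0.676 to 692 ± 5.11 CPM, SARS1 from 241 ± 8.74 to 475 ± 2.28 CPM and WARS1 from 219.6 ± 3.33 to 392 ± 4.43 CPM. KARS1, which also serves as a signalling protein, fell from 626 ± 2.05 to 247 ± 2.698 CPM and HARS1 from 189 ± 3.82 to 90.7 ± 3.28 CPM, both at loci shared with a neighbour. TARS1 did not pass under TMM, at 495 ± 5.05 and 492 ± 7.28 CPM. Of 19 transporters 11 were higher and 7 lower under TMM (0.64), and 12 and 4 under library totals (1.09). The leucine carrier SLC7A5 rose from 465 ± 9.83 to 1139 ± 3.69 CPM and the glutamine carrier SLC38A1 from 388 ± 10.2 to 928 ± 16.01 CPM, while the taurine carrier SLC6A6 fell from 31 ± 1.23 to 18.7 ± 1.25 CPM. Against glucose alone 13 synthetases and 11 transporters were lower, and 1 and 0 higher.

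Genes of the endoplasmic reticulum's unfolded protein response had no common direction. Of 28, 17 were lower and 10 higher under TMM (median -0.26), and 11 lower and 14 higher under library totals (0.19). The TMM shares were 35.7% higher and 60.7% lower, beside 39.6% and 37.9% of all genes. With library totals they were 50% and 39.3%, beside 60.8% and 19.7%. The sign of the median turned with the scaling, but it lay below that of all genes under both (0.04 and 0.49). CALR, the lectin chaperone calreticulin, fell from 727, 739 and 739 to 223, 226 and 234 CPM (log2 -1.69 ± 0.02, library totals -1.25), and the disulfide isomerases PDIA4 and PDIA3 from 257 ± 5.67 and 377 ± 7.08 to 103 ± 1.07 and 199.6 ± 1.89 CPM. HSP90B1, the reticulum's HSP90, fell from 931 ± 9.8 to 592 ± 4.25 CPM. HSPA5, the reticulum's HSP70, rose from 1067, 1057 and 1060.2 to 1673, 1655 and 1666 CPM (log2 0.65 ± 0.02, library totals 1.09), and SEL1L, which carries misfolded protein out for degradation, from 57.6 ± 0.985 to 125 ± 1.23 CPM. XBP1, a factor of the response, was at 71.6 ± 2.24 and 76.2 ± 1.37 CPM (log2 0.09 ± 0.04, library totals 0.53), and its call under TMM was lost without any of 4 libraries (replicates 2 and 3 without nutrients, replicates 1 and 3 with glucose and NH4Cl), at log2 changes of 0.07 to 0.09. HSPA5 was higher still with glucose alone, at 2334 ± 31.4 CPM, a log2 difference with NH4Cl of -0.49 ± 0.02 (edgeR adjusted p = 2.90e-74).

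Most genes of sterol synthesis were higher with glucose and NH4Cl than without nutrients, and higher than with glucose alone. Of 22 cholesterol synthesis genes, 14 were higher and 6 lower than without nutrients under TMM (median 0.52), and 17 and 4 under library totals (0.96). HMGCS1, which starts the mevalonate pathway, was at 74.2, 67.3 and 71.9 CPM without nutrients and 248, 241 and 239.7 CPM with glucose and NH4Cl (log2 1.77 ± 0.03, library totals 2.21, edgeR adjusted p = 2.70e-113). All libraries with glucose and NH4Cl lay above those without nutrients.

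The cyclase LSS rose from 75.99 ± 1.75 to 213 ± 3.32 CPM, the epoxidase SQLE from 88.7 ± 2.78 to 176 ± 1.75 CPM, MSMO1, a sterol oxidase, from 37.9 ± 2.28 to 84.4 ± 1.03 CPM, and IDI1, an isomerase, from 91.2 ± 0.546 to 135 ± 1.38 CPM. ACAT2, a thiolase that overlaps TCP1, fell from 125 ± 1.76 to 72.6 ± 2.395 CPM. CYP51A1 and HSD17B7 did not pass under TMM, at 15.2 ± 1.38 and 13.7 ± 0.297 CPM without nutrients and 16.7 ± 0.533 and 15.03 ± 0.2896 CPM with glucose and NH4Cl. Against glucose alone 19 of the 22 genes were higher with NH4Cl and 0 lower, with a median difference of 1.26, where 12.7% of all genes were higher. Glucose alone had a median of -0.83 against no nutrients. HMGCS1 was at 41.2 ± 1.704 CPM with glucose alone and differed by 2.56 ± 0.04 (edgeR adjusted p = 1.02e-136). Against glucose with glutamine 20 of 22 were lower and 1 higher (median -0.64), and HMGCS1 was at 364 ± 0.686 CPM there, a difference of -0.59 ± 0.03 (edgeR adjusted p = 5.21e-53).

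Control and uptake genes of the sterol pathway were more often higher than lower. Of 16, 11 were higher and 5 lower under TMM (median 0.48; 3 lower without NH4Cl replicate 2), and 12 and 1 under library totals (0.93). Under TMM 68.8% were higher beside 39.6% of all genes, and under library totals 75% beside 60.8%. INSIG1, which holds SREBP factors in the reticulum and is itself one of their targets, was at 168, 164 and 167 CPM without nutrients, 247, 248 and 235 CPM with glucose and NH4Cl and 30.9 ± 2.11 CPM with glucose alone. Its log2 change was 0.55 ± 0.03 and its difference from glucose alone 2.98 ± 0.04 (edgeR adjusted p = 7.41e-139). So INSIG1 was above the medium without nutrients when NH4Cl was added to glucose and below it with glucose alone.

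SREBF2, the sterol-regulating factor, rose from 138, 138 and 147 to 228, 230.04 and 228 CPM (log2 0.7 ± 0.03, library totals 1.15), and SREBF1, its lipogenic relative, from 180.02 ± 4.14 to 309 ± 8.92 CPM (log2 0.78 ± 0.03, library totals 1.22). STARD4, a sterol carrier, rose from 31.1 ± 2.36 to 98.9 ± 3.83 CPM, NPC1, which exports cholesterol from lysosomes and overlaps RMC1, from 77.9 ± 6.42 to 164 ± 2.01 CPM, and the efflux pump ABCA1 from 10.5 ± 0.375 to 31.6 ± 0.625 CPM. MYLIP, a ubiquitin ligase, fell from 26.8 ± 1.28 to 13.5 ± 1.23 CPM. Against glucose alone 8 genes were higher and 2 lower (median 0.22). Set against glucose with glutamine, 5 were higher and 5 lower. The letters TCACNCCAC, a form of the sterol element, lay on either strand in the windows of 0 of 17 cholesterol genes, 1 of 16 control genes (6.25%, SREBF2) and 2 of 21 fatty acid genes (9.52%, ACSL1 and MID1IP1), against 1.39% of all genes.

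Fatty acid genes were divided. Of 23, 10 were higher and 12 lower under TMM (median -0.15), and 16 and 4 under library totals (0.30, beside 0.49 for all genes). The TMM shares were 43.5% and 52.2%, beside 39.6% and 37.9% of all genes. With library totals they were 69.6% and 17.4%, beside 60.8% and 19.7%. SCD, the desaturase that makes oleate, was at 1192, 1171 and 1185 CPM without nutrients and 3706, 3721 and 3647 CPM with glucose and NH4Cl (log2 1.64 ± 0.02, library totals 2.09). FASN, fatty acid synthase, was at 549.6, 555 and 546 and 845, 860.5 and 871 CPM (log2 0.64 ± 0.02, library totals 1.09). LPIN1, a phosphatidate phosphatase, rose from 102 ± 1.001 to 305 ± 4.42 CPM. In each gene the media did not overlap.

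ACLY, which makes cytosolic acetyl-CoA from citrate, was at 277, 276 and 277 and 209, 214 and 215 CPM, a log2 change of -0.38 under TMM and 0.07 under library totals, so its direction rests on the scaling. ELOVL5 and ELOVL1, which lengthen fatty acids, fell from 432 ± 8.57 and 168 ± 3.49 to 248 ± 2.72 and 115 ± 4.15 CPM, and SCD5, another desaturase, from 12.2 ± 0.875 to 5.72 ± 0.322 CPM. ACSL1, which activates long-chain fatty acids, fell from 40.3 ± 2.11 to 25.8 ± 1.36 CPM. FADS1 did not pass under TMM, at 178 ± 6.47 and 186 ± 0.51 CPM, and passed as higher without replicate 1 of the medium without nutrients (log2 0.0852). Against glucose alone 16 of 23 were higher and 3 lower (median 0.45). SCD was at 617 ± 5.29 CPM there (difference 2.58 ± 0.02, edgeR adjusted p = 5.40e-195) and FASN at 179 ± 3.02 CPM (difference 2.27 ± 0.02, edgeR adjusted p = 6.52e-163). With glucose and glutamine SCD was at 4008 ± 20.7 CPM and FASN at 2055 ± 68.98 CPM, and 18 of 23 genes were lower with NH4Cl than there.

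**Figure D3:**
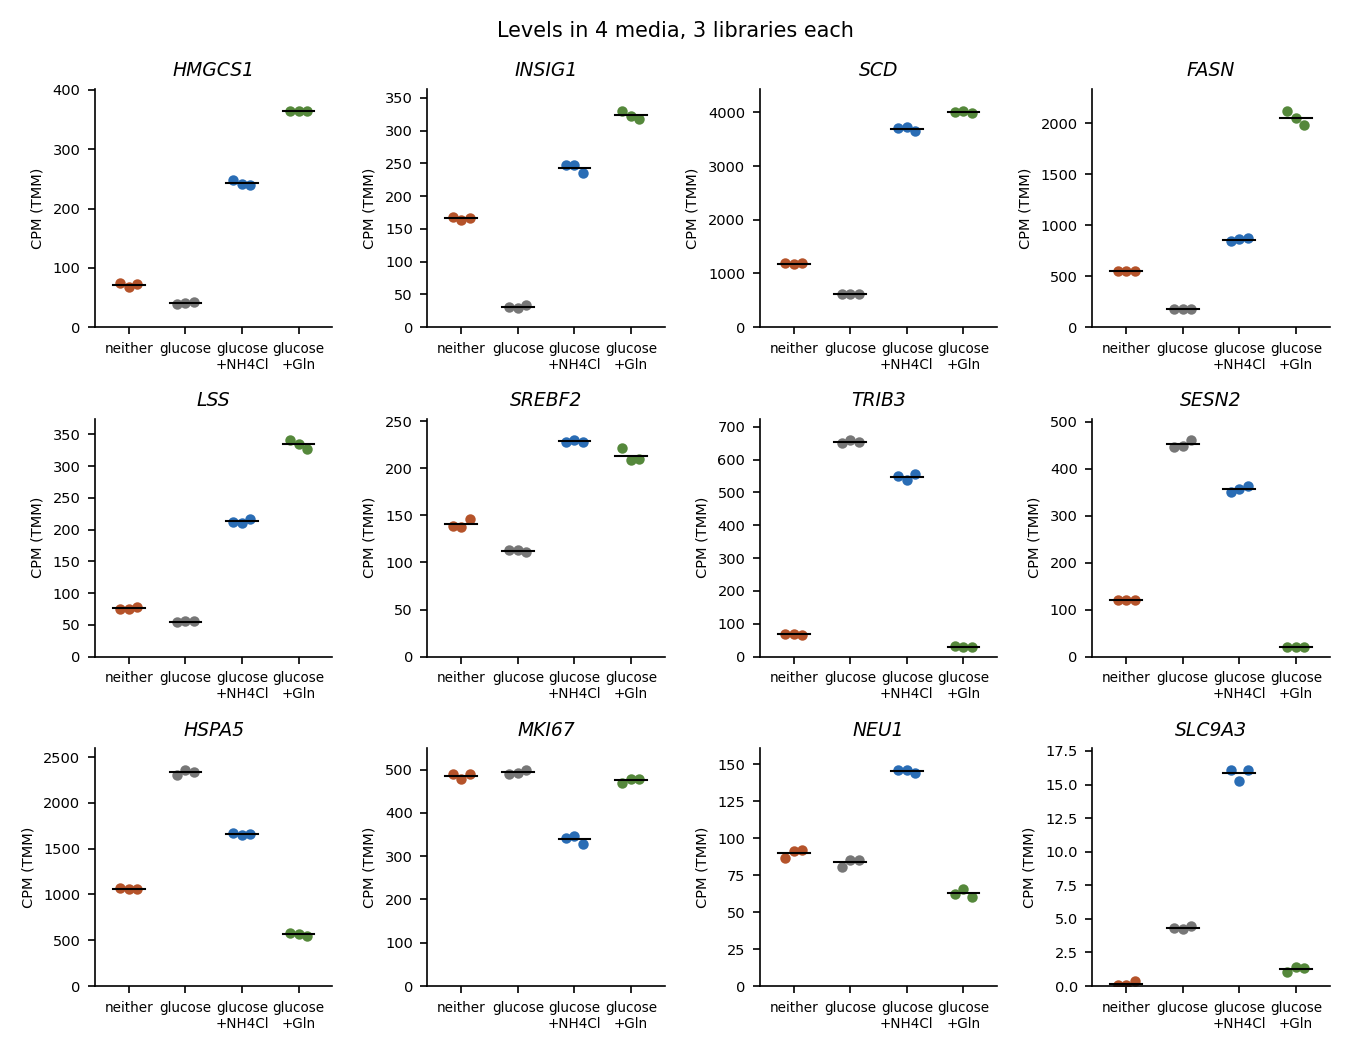
Level in CPM (vertical axes, TMM-scaled, from 0) of 12 genes in 4 media (horizontal axes), with 3 libraries each as points and the mean as a line. HMGCS1, INSIG1, SCD, FASN and LSS lie lower with glucose alone than without nutrients and higher with NH4Cl added, while TRIB3, SESN2 and HSPA5 are highest with glucose alone, and MKI67 is lowest with NH4Cl.

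Glycolysis genes fell in most cases. Of 24, 21 were lower and 3 higher under TMM (median -0.85), and 16 lower and 6 higher under library totals (-0.41). LDHA, lactate dehydrogenase, fell from 1010.3, 980.1 and 991 to 348, 340.1 and 339 CPM (log2 -1.54 ± 0.02, library totals -1.09), TPI1, a triose isomerase, from 1398 ± 17.8 to 539 ± 2.38 CPM, PGAM1, a mutase, from 559 ± 11.9 to 201 ± 0.627 CPM and PKM, pyruvate kinase, from 3263 ± 8.58 to 1554 ± 13.8 CPM. Of the glucose carriers, SLC2A1 fell from 103 ± 3.65 to 54.6 ± 2.203 CPM (log2 -0.91 ± 0.04, library totals -0.46). SLC2A3 (log2 -0.2 under TMM and 0.25 under library totals) and hexokinase HK2 (-0.17 and 0.28) changed direction with the scaling. PFKFB2, which makes the activator of phosphofructokinase, rose from 9.85, 9.07 and 10.4 to 43, 46.2 and 38.8 CPM (log2 2.13 ± 0.08, library totals 2.57), and ENO2, the neuronal enolase, from 35.4 ± 0.137 to 41.9 ± 1.54 CPM. Both share positions with a neighbour. Against glucose alone 11 of 24 were higher and 2 lower (median 0.06).

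TXNIP, the best known target of the glucose sensor MondoA, was too low to be tested, at 0.536, 0.391 and 0.236 CPM without nutrients and 0.307, 0.0575 and 0.249 CPM with glucose and NH4Cl. Of the 10 tested genes of the MondoA and arrestin-domain list 7 were higher and 3 lower under TMM (median 0.36), and 7 and 2 under library totals (0.81). The TMM shares were 70% and 30%, beside 39.6% and 37.9% of all genes. With library totals they were 70% and 20%, beside 60.8% and 19.7%. ARRDC4, an arrestin-domain target, rose from 0.469, 0.704 and 1.18 to 2.95, 4.77 and 3.17 CPM (log2 2.24 ± 0.29, library totals 2.68), ARRDC2 from 18.4 ± 0.425 to 29.8 ± 1.22 CPM and MLXIP, MondoA itself, from 87.8 ± 0.0564 to 105 ± 0.991 CPM. ARRDC3 fell from 141 ± 5.69 to 85.1 ± 3.16 CPM and the repressor KLF11 from 73.7 ± 2.09 to 43.9 ± 0.412 CPM. The carbohydrate element, searched as a pair of CACGTG boxes 5 bases apart on both strands, was in 0 of 11 windows and in 0.00732% of all genes.

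Of 10 genes of the pentose phosphate pathway and NADPH supply 6 were lower and 4 higher under TMM (median -0.32), and 4 lower and 6 higher under library totals (0.13, beside 0.49 for all genes). The TMM shares were 40% higher and 60% lower, beside 39.6% and 37.9% of all genes. With library totals they were 60% and 40%, beside 60.8% and 19.7%. IDH1, the cytosolic isocitrate dehydrogenase, rose from 55.8, 56.99 and 55.98 to 209, 209 and 204 CPM (log2 1.88 ± 0.04, library totals 2.33) and H6PD, which makes NADPH in the reticulum, from 12.3, 11.5 and 9.68 to 64.8, 67.4 and 70.3 CPM (log2 2.59 ± 0.07, library totals 3.03). PGD, the second dehydrogenase of the pathway, fell from 326 ± 9.65 to 205 ± 3.81 CPM and TALDO1, transaldolase, from 149 ± 5.67 to 104 ± 3.74 CPM.

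Nuclear genes of mitochondrial metabolism were lower. Of 31 pyruvate and TCA cycle genes 27 were lower and 3 higher under TMM (median -0.63), and 19 and 6 under library totals (-0.18). MDH2, malate dehydrogenase, fell from 682 ± 2.097 to 328 ± 10.2 CPM, SDHB, of succinate dehydrogenase, from 153 ± 5.74 to 65.5 ± 2.54 CPM, and CS, citrate synthase, from 478 ± 8.12 to 275 ± 6.88 CPM. PCK2, which makes phosphoenolpyruvate in mitochondria and is also a known ATF4 target, rose from 28, 27.4 and 26.5 to 147, 145 and 153 CPM (log2 2.44 ± 0.05, library totals 2.89). PC, pyruvate carboxylase, rose from 10.96 ± 0.159 to 16.7 ± 1.12 CPM at a locus shared with LRFN4. MPC1, a pyruvate carrier, did not pass under TMM, at 13.5 ± 0.641 and 12.7 ± 0.876 CPM.

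Of 46 nuclear genes of oxidative phosphorylation 44 were lower and 0 higher under TMM (median -0.75), and 40 lower and 2 higher under library totals (-0.31). CYCS, cytochrome c, fell from 431 ± 5.52 to 159.99 ± 1.05 CPM (log2 -1.43 ± 0.03, library totals -0.98) and the ATP synthase subunits ATP5F1B and ATP5MC3 from 1655 ± 10.2 and 234 ± 6.63 to 1015 ± 2.64 and 96.2 ± 3.37 CPM. NDUFS1 and NDUFV2, of complex I, did not pass under TMM, at 141 ± 4.13 and 1.05 ± 0.322 CPM without nutrients and 137 ± 1.42 and 0.743 ± 0.0573 CPM with glucose and NH4Cl. The median exon length of the list is 2888 bases, and protein-coding genes of up to 2980 bases had medians of -0.62 under TMM and -0.18 under library totals. Against glucose alone 22 of 46 were higher and 2 lower (median 0.10).

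Mitochondrially encoded genes went the other way. Of 13, 11 were higher and 1 lower under TMM (median 0.74), and 13 higher under library totals (1.18). MT-CO3, of cytochrome oxidase, rose from 248, 249 and 243 to 521, 516 and 513 CPM (log2 1.07 ± 0.02, library totals 1.51), MT-CYB from 201 ± 1.49 to 397 ± 5.64 CPM and MT-ND2, of complex I, from 341 ± 4.69 to 603 ± 2.54 CPM. MT-ND4L did not pass under TMM, at 122 ± 6.36 and 119 ± 3.37 CPM, and overlaps MT-ND4. The median exon length of the list is 784 bases. The mitochondrial chromosome held 1.06% ± 0.0104 of the counts with glucose and NH4Cl, 0.766% ± 0.0142 without nutrients and 0.856% ± 0.00988 with glucose alone (SD, n = 3). Against glucose alone 12 of 13 were higher and 0 lower, with a median difference of 0.26.

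**Figure D4:**
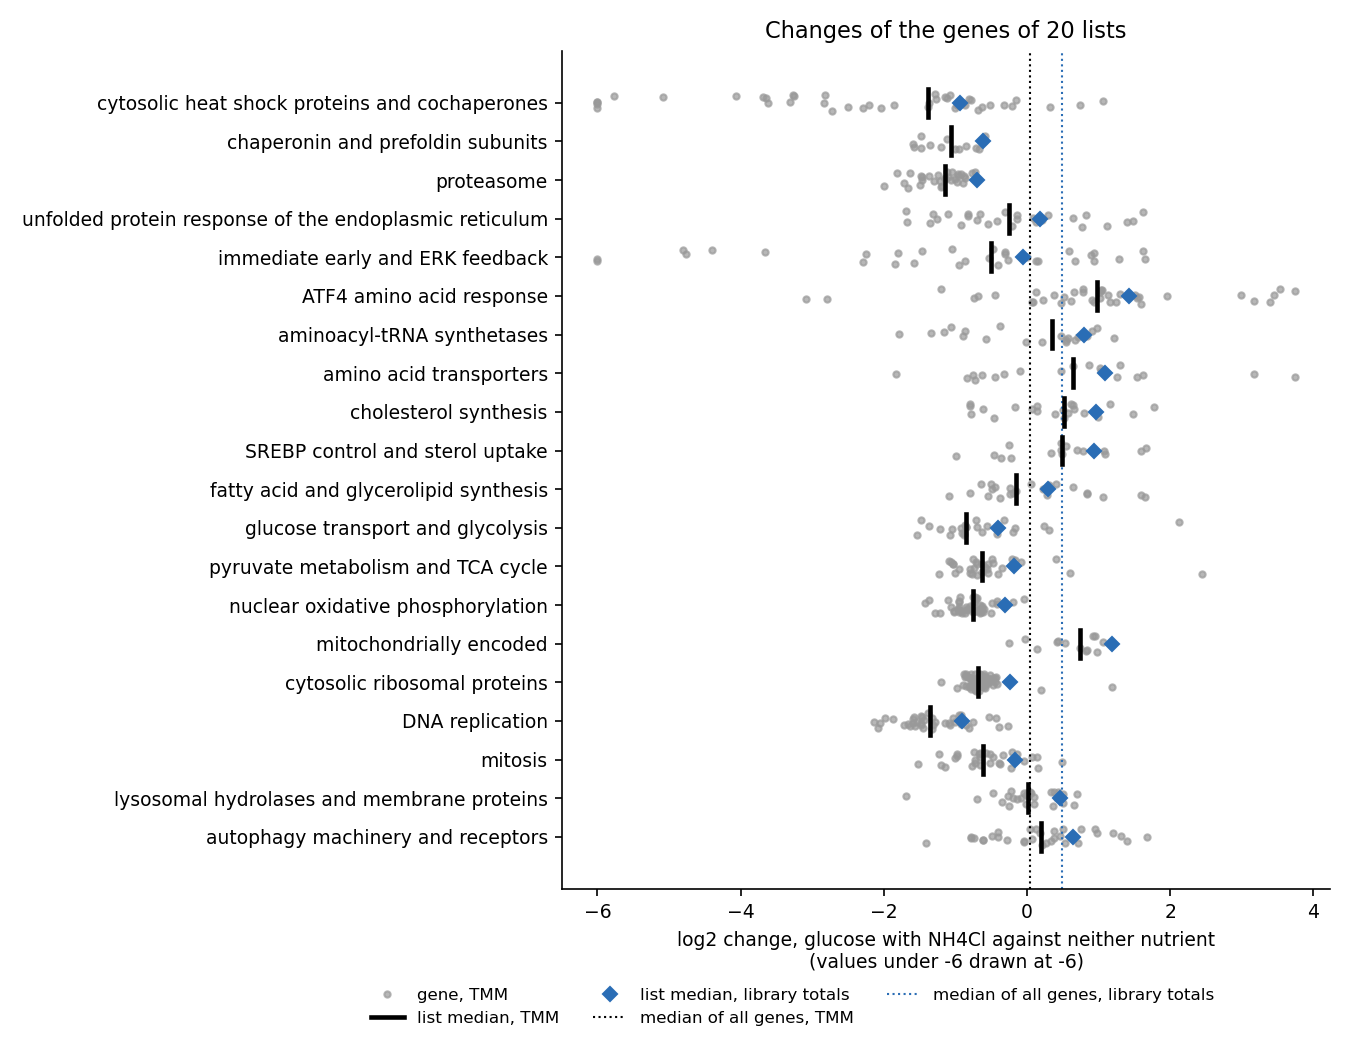
Log2 change of each tested gene of 20 lists (grey points, horizontal axis; values under -6 are drawn at -6) between glucose with NH4Cl and neither nutrient under TMM, with the list median under TMM (black bar) and under library totals (blue diamond). Dotted lines mark the medians of all genes, 0.04 and 0.49. The list medians of heat shock, DNA replication and proteasome are the lowest of the 20 under both scalings. Other list medians, such as those of chaperonin and glycolysis, also lie to the left of both lines.

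Cytosolic ribosomal proteins fell together by a modest amount. Of 79, 77 were lower and 1 higher under TMM (median -0.68), and 71 and 2 under library totals (-0.23). The median exon length of the list is 3109 bases. Protein-coding genes at 20 CPM or more had medians of -0.62 and -0.18 at 207 to 2980 bases. At 2981 to 4205 bases those medians were -0.40 and 0.04, and in the tenth of genes with the highest levels -0.46 and -0.02. The part of length or level in the fall of this list was not tested. RPL35 fell from 1059.8 ± 22.1 to 569 ± 11.4 CPM and RPL7 from 4514 ± 42.1 to 2950.1 ± 38.8 CPM. RPL36A, listed at 1.14, 0.938 and 2.05 and 3.07, 2.59 and 3.67 CPM, was the 1 that rose, and RPS10 did not pass under TMM, at 1.19 ± 0.3101 and 1.39 ± 0.203 CPM. Both were counted far less than RPL35 and RPL7, so whether RPL36A is a true exception is uncertain. The many processed copies of these genes make each single value uncertain. Against glucose alone 64 of 79 were higher and 0 lower, with a median difference of 0.09.

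All 34 mitochondrial ribosomal proteins were lower under TMM (median -0.89), and 31 were lower and 2 higher under library totals (-0.44). The median exon length of this list is 2501.5 bases, and protein-coding genes of 207 to 2980 bases had medians of -0.62 and -0.18. MRPS12 fell from 183 ± 3.74 to 53.6 ± 2.45 CPM and MRPL3 from 284 ± 4.33 to 147 ± 5.17 CPM. Of 29 ribosome biogenesis genes 25 were lower and 1 higher under TMM (-0.81), and 20 and 5 under library totals (-0.37). Nucleolin, NCL, fell from 2463 ± 14.8 to 1114 ± 13.6 CPM, BOP1, a processing factor for large subunits, from 364 ± 5.37 to 104 ± 4.71 CPM and NOLC1, a nucleolar scaffold, from 431 ± 4.59 to 173 ± 1.59 CPM. UBTF, which opens ribosomal DNA for polymerase I, rose from 118 ± 4.92 to 145 ± 4.56 CPM. Of 23 translation factors 17 were lower and 5 higher under TMM (-0.46), and 11 and 10 under library totals (-0.01). EIF5A fell from 1270.4 ± 32.04 to 517 ± 12.5 CPM, whereas EIF4EBP2, a brake on cap-dependent initiation, rose from 65.1 ± 2.64 to 99.8 ± 1.26 CPM.

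DNA replication genes were lower without exception under TMM. All 40 were lower (median -1.36, range -2.13 to -0.27), and 37 were lower and 0 higher under library totals (-0.91). MCM4, of the replicative helicase, fell from 701, 677 and 674 to 164, 165 and 167 CPM (log2 -2.05 ± 0.02, edgeR adjusted p = 8.46e-148; library totals -1.6). MCM2 fell from 462, 460.2 and 466 to 111, 118 and 123 CPM (log2 -1.98 ± 0.03, library totals -1.53), and MCM7 and MCM6 from 1390 ± 12.4 and 274 ± 5.504 to 568 ± 8.16 and 83.4 ± 1.79 CPM. Against glucose alone 5 were higher and 9 lower (median -0.01), and against glucose with glutamine all 40 were lower (median -0.99). MCM4 was at 158 ± 6.35 CPM with glucose alone and 580.3 ± 9.21 CPM with glucose and glutamine.

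Mitosis genes fell less against no nutrients, and differed from glucose alone. Of 30, 24 were lower and 3 higher under TMM (median -0.61), and 18 and 10 under library totals (-0.17). CDC20, which starts anaphase, fell from 537, 552 and 545 to 186, 190.3 and 191 CPM (log2 -1.53 ± 0.02, library totals -1.08), TPX2, a spindle factor, from 1126 ± 13.5 to 491 ± 6.31 CPM and cyclin B1, CCNB1, from 474 ± 2.89 to 241 ± 2.83 CPM. ASPM, a spindle pole protein, rose from 86.7 ± 4.41 to 122 ± 4.503 CPM and CENPA, the centromere histone, from 56.3 ± 2.28 to 62.3 ± 1.07 CPM at a locus shared with SLC35F6. TTK, PRC1 and CDC25C did not pass under TMM, at 157 ± 1.79, 2.38 ± 0.842 and 35.6 ± 5.16 CPM without nutrients and 153 ± 1.601, 1.82 ± 0.659 and 39.5 ± 1.46 CPM with glucose and NH4Cl. PRC1 passed as lower without replicate 2 of the medium without nutrients (log2 -0.651) or replicate 2 with NH4Cl (-0.578), beside -0.39 with all libraries. CDC25C passed as higher without replicate 1 of the medium without nutrients (0.247), beside 0.14. Against glucose alone 29 of 30 were lower with NH4Cl and 0 higher, with a median difference of -0.37, where 16.9% of all genes were lower. MKI67, the proliferation antigen, was at 489.8, 478 and 491 CPM without nutrients, 342, 348 and 328 CPM with glucose and NH4Cl and 494 ± 5.23 CPM with glucose alone, a difference of -0.54 ± 0.02 (edgeR adjusted p = 8.64e-58).

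Cell cycle regulators of G1 were mixed, with 6 of 14 higher and 7 lower under TMM (median -0.04), and 9 and 5 under library totals (0.41). The TMM shares were 42.9% and 50%, beside 39.6% and 37.9% of all genes. With library totals they were 64.3% and 35.7%, beside 60.8% and 19.7%. CDKN1A, the inhibitor p21, fell from 155, 153 and 158 to 62.2, 66.3 and 67.3 CPM (log2 -1.25 ± 0.03, library totals -0.81), and CDKN2B, the inhibitor p15, rose from 21.97, 22.4 and 21.5 to 61.9, 61.6 and 63.2 CPM (log2 1.5 ± 0.06, library totals 1.95). RBL2, the pocket protein p130, rose from 38.5 ± 0.645 to 79.9 ± 1.18 CPM at a locus shared with AKTIP. Cyclin D1, CCND1, fell from 315 ± 9.09 to 216 ± 3.93 CPM and cyclin D3, CCND3, from 122 ± 3.44 to 43.6 ± 1.58 CPM.

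Lysosomal genes were divided against no nutrients, and nearly all were higher than with glucose alone. Of 28 hydrolase and membrane protein genes, 11 were higher and 10 lower than without nutrients under TMM (median 0.01), and 25 and 2 under library totals (0.46). The TMM shares, 39.3% and 35.7%, were near the 39.6% and 37.9% of all genes. Under library totals the shares were 89.3% and 7.14%, beside 60.8% and 19.7% of all genes. Against glucose alone 27 of 28 were higher with NH4Cl and 0 lower, with a median difference of 0.26, where 12.7% of all genes were higher. NEU1, the lysosomal sialidase, was at 86.96, 91.6 and 91.8 CPM without nutrients, 146, 146 and 144 CPM with glucose and NH4Cl and 83.7 ± 2.46 CPM with glucose alone. Its log2 change was 0.69 ± 0.03 and its difference from glucose alone 0.8 ± 0.03 (edgeR adjusted p = 1.02e-58).

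LAMP2, a membrane protein of the lysosome, rose from 85.7 ± 2.15 to 121 ± 2.697 CPM, TPP1, a peptidase, from 37.6 ± 2.9 to 53.3 ± 3.13 CPM and SCARB2, a receptor that delivers glucocerebrosidase, from 93.4 ± 3.48 to 118 ± 0.653 CPM. GLA, a galactosidase, fell from 65.01 ± 2.296 to 20.1 ± 0.997 CPM and PPT1, a thioesterase overlapping CAP1, from 172 ± 1.37 to 106 ± 2.01 CPM. Of 16 subunits of the vacuolar proton pump, which acidifies the lysosome, 3 were higher and 10 lower under TMM (median -0.39), and 8 and 5 under library totals (0.06). ATP6V1B2 rose from 63.2 ± 2.47 to 78.8 ± 1.91 CPM and ATP6V1F fell from 75.4 ± 1.27 to 30.8 ± 0.876 CPM. Against glucose alone 13 of 16 pump genes were higher and 1 lower (median 0.22).

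Autophagy genes were divided, with 18 of 32 higher and 9 lower under TMM (median 0.20), and 23 and 5 under library totals (0.65). Under library totals 71.9% were higher and 15.6% lower, beside 60.8% and 19.7% of all genes. Against glucose alone 7 of 32 were higher with NH4Cl and 9 lower, with a median difference of -0.02. There 12.7% of all genes were higher and 16.9% lower. Glucose alone had a median of 0.14 against no nutrients in this list. SQSTM1, the receptor p62, rose from 625, 628 and 628 to 1423, 1428 and 1456 CPM (log2 1.2 ± 0.02, library totals 1.64), MAP1LC3B, which coats autophagosomes, from 274 ± 2.57 to 719 ± 10.8 CPM, and ULK1, the kinase that starts autophagy, from 24.1 ± 1.39 to 77.1 ± 1.77 CPM. ATG101, a partner of ULK1, fell from 78.7 ± 1.21 to 29.7 ± 2.72 CPM. SQSTM1 shares positions with MGAT4B. Of 20 Rag, folliculin and TFE genes, which tie mTORC1 to the lysosome, 9 were higher and 8 lower under TMM (-0.05), and 14 and 1 under library totals (0.40). The TMM shares were 45% and 40%, beside 39.6% and 37.9% of all genes. With library totals they were 70% and 5%, beside 60.8% and 19.7%. FNIP1, a folliculin partner, rose from 24.9, 24.9 and 22.4 to 83.5, 92.7 and 76.9 CPM (log2 1.81 ± 0.06, library totals 2.25) and TSC1, a brake on mTORC1, from 38.1 ± 0.353 to 80.7 ± 1.23 CPM. TFEB and MITF did not pass under TMM, at 1.81 ± 0.429 and 1.33 ± 0.278 CPM without nutrients and 1.33 ± 0.101 and 1.25 ± 0.288 CPM with glucose and NH4Cl.

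Enzymes that handle ammonia and glutamine did not move together. Of 23, 8 were higher and 12 lower under TMM (median -0.17), and 13 and 7 under library totals (0.28, beside 0.49 for all genes). The TMM shares were 34.8% and 52.2%, beside 39.6% and 37.9% of all genes. With library totals they were 56.5% and 30.4%, beside 60.8% and 19.7%. GLUL, which joins ammonia to glutamate, was at 72.1, 70.2 and 73.9 CPM without nutrients and 66.9, 64.8 and 62.1 CPM with glucose and NH4Cl, a log2 change of -0.16 under TMM and 0.29 under library totals. GLUD1, glutamate dehydrogenase, likewise changed by -0.26 and 0.18. The direction of both rests on the scaling.

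CPS1, which starts the urea cycle, was barely counted, at 0.603, 0.704 and 0.394 and 1.41, 1.03 and 0.995 CPM (log2 1.00 ± 0.38, library totals 1.44), and its call was lost without replicate 3 of the medium without nutrients (0.81) or replicate 1 with glucose and NH4Cl (0.82). The aminotransferase GOT1 rose from 132 ± 2.54 to 291 ± 8.73 CPM and its mitochondrial form GOT2 fell from 249 ± 6.66 to 96.3 ± 1.87 CPM. CTPS1, which takes nitrogen from glutamine to make CTP, fell from 245 ± 8.12 to 83.4 ± 0.873 CPM, and GFPT1, which takes it for hexosamines, rose from 61.7 ± 1.96 to 124 ± 1.61 CPM. The ammonium channels RHBG and RHCG and the glutaminase GLS2 were too low to be tested. Against glucose alone 2 of 23 were higher and 12 lower (median -0.14).

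The largest rise among genes at a mean of 5 CPM or more was in SLC9A3, a sodium-proton exchanger (chr5:470458-524332, GRCh38). It was listed at 1, 1 and 5 counts without nutrients and at 16.1, 15.3 and 16.1 CPM with glucose and NH4Cl, a normalised ratio of 91.3 (95% exact interval 44.1 to 228). The antisense gene SLC9A3-AS1 at the same place rose from 0.938, 1.41 and 0.945 to 63.9, 68.02 and 64.5 CPM (log2 5.9 ± 0.22, library totals 6.34). Reads of the pair cannot be told apart here, since no source used here gives the strand setting of the read counting. SLC9A3 was at 4.34 ± 0.136 CPM with glucose alone (difference 1.86 ± 0.12, edgeR adjusted p = 1.25e-34), 1.26 ± 0.217 CPM with glucose and glutamine and 5.58 ± 0.523 CPM with glutamine alone, so of the 5 media its mean was highest with glucose and NH4Cl.

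Other genes of pH control moved less. Of 8 tested, 3 were higher and 4 lower under TMM (median -0.05), and 6 and 1 under library totals (0.39). CA2, a carbonic anhydrase, fell from 24.2, 24.8 and 26.6 to 5.65, 4.998 and 5.47 CPM (log2 -2.23 ± 0.11, library totals -1.78). SLC4A7, a bicarbonate carrier, rose from 72.8 ± 1.64 to 113 ± 6.17 CPM.

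NEAT1, the nuclear RNA that builds paraspeckles (chr11:65422774-65445540, GRCh38), rose from 40.9, 37.6 and 42.05 to 894, 912 and 915 CPM (log2 4.5 ± 0.04, library totals 4.94, edgeR adjusted p = 2.06e-195). It was at 737 ± 1.68 CPM with glucose alone and 217 ± 3.04 CPM with glucose and glutamine. MALAT1, its neighbour, rose from 644, 644 and 643 to 947, 965 and 992 CPM (log2 0.59 ± 0.05, library totals 1.03). Of 14 nuclear and small nucleolar host RNAs 5 were higher and 7 lower under TMM (median -0.07), and 12 and 2 under library totals (0.38), with SNHG1 rising from 172 ± 4.19 to 264 ± 5.36 CPM and SNHG16 falling from 93.2 ± 1.33 to 53.7 ± 2.32 CPM. Set against glucose with glutamine, 13 of 14 were higher and 0 lower (median 0.83).

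BMF, a BCL2-family protein that promotes cell death, was at 15, 9 and 7 counts without nutrients and at 18.9, 17.4 and 19.9 CPM with glucose and NH4Cl, a ratio of 24.4 (95% exact interval 17.05 to 36.1). It was at 6.05 ± 0.604 CPM with glucose alone (difference 1.62 ± 0.10, edgeR adjusted p = 4.82e-36). Of 18 BCL2 family and death receptor genes 7 were higher and 8 lower under TMM (median 0.13), and 11 and 6 under library totals (0.58). The shares that were higher, 38.9% and 61.1%, were near the 39.6% and 60.8% of all genes. The shares that were lower were 44.4% and 33.3%, beside 37.9% and 19.7%. The death receptor TNFRSF10B rose from 57.5, 55.9 and 55.9 to 218, 215 and 219.6 CPM (log2 1.95 ± 0.04, library totals 2.39), BBC3, known as PUMA, from 7.69 ± 0.399 to 31.3 ± 2.26 CPM, and the survival factor MCL1 from 295 ± 6.76 to 525 ± 8.73 CPM. BID fell from 48.9 ± 1.69 to 14.1 ± 0.737 CPM and PMAIP1, known as NOXA, from 41.6 ± 2.58 to 22.5 ± 0.678 CPM.

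Further large rises were in TP53INP1, a stress protein of autophagy that overlaps NDUFAF6, from 3.82, 3.67 and 2.76 to 50.2, 52.5 and 46.1 CPM (log2 3.85 ± 0.13, library totals 4.29), and in AVIL, a villin relative that overlaps TSFM, from 1.67, 1.41 and 1.102 to 19.7, 17.5 and 16.4 CPM (log2 3.66 ± 0.20, library totals 4.1). Of the overlapping partners TSFM fell from 46.7 ± 1.31 to 28.6 ± 0.826 CPM, and NDUFAF6, at 21.2 ± 1.33 and 14.3 ± 0.687 CPM, was lower under TMM and did not pass under library totals. RUSC1-AS1, which lies over FDPS and RUSC1, rose from 1.005, 0.782 and 0.709 to 10.1, 11.1 and 9.64 CPM and was higher than with glucose alone by 2.2 ± 0.15 (edgeR adjusted p = 7.85e-35), while FDPS, a sterol enzyme, rose from 102 ± 3.65 to 145 ± 3.36 CPM. The antisense gene ADIRF-AS1 rose from 2.61, 2.03 and 1.42 to 27.7, 30.2 and 27.3 CPM (log2 3.79 ± 0.17, library totals 4.23), and LURAP1L, whose role is less known, from 1.88, 1.17 and 2.13 to 26.5, 28.7 and 26.2 CPM (log2 3.97 ± 0.18, library totals 4.41).

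Redox genes had no common direction. Of 21 genes of NRF2, glutathione and thioredoxin, 8 were higher and 10 lower under TMM (median -0.05), and 14 and 5 under library totals (0.40). The TMM shares were 38.1% and 47.6%, beside 39.6% and 37.9% of all genes. With library totals they were 66.7% and 23.8%, beside 60.8% and 19.7%. HMOX1, heme oxygenase, fell from 572, 586 and 589 to 60.4, 57.6 and 59.4 CPM (log2 -3.3 ± 0.03, library totals -2.85), PRDX1, a peroxiredoxin, from 845 ± 2.33 to 278 ± 8.35 CPM and TXN, thioredoxin, from 315 ± 3.04 to 177 ± 1.27 CPM. TXNRD1, its reductase, rose from 795 ± 11.5 to 1353 ± 7.04 CPM and NQO1, a quinone reductase, from 231 ± 3.37 to 346 ± 3.31 CPM. NFE2L2, the factor NRF2, did not pass under TMM, at 202 ± 0.968 and 210.2 ± 3.396 CPM, and passed as higher without replicate 3 with NH4Cl (log2 0.0655).

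Targets of hypoxia were mixed, with 6 of 16 higher and 9 lower under TMM (median -0.29), and 8 and 7 under library totals (0.15). The TMM shares were 37.5% and 56.2%, beside 39.6% and 37.9% of all genes. With library totals they were 50% and 43.8%, beside 60.8% and 19.7%. ADM, the vasodilator adrenomedullin, fell from 85.9, 82.2 and 87.2 to 9.95, 10.3 and 11.3 CPM (log2 -3.02 ± 0.07, library totals -2.57), P4HA2, a collagen hydroxylase that overlaps SLC22A4, from 29.7 ± 0.558 to 11.2 ± 0.566 CPM, and VEGFA, the vascular growth factor, rose from 49.7 ± 2.92 to 78.3 ± 2.397 CPM. Of 18 NF-kB genes 2 were higher and 13 lower under TMM (-0.53; 1 higher without replicate 2 of either medium), and 6 and 7 under library totals (-0.09). BIRC3, an inhibitor of apoptosis, fell from 218 ± 4.91 to 64.6 ± 1.96 CPM and NFKBIA, the inhibitor of NF-kB, from 32.7 ± 1.12 to 12.9 ± 1.19 CPM, while the chemokine CXCL2 rose from 170.5 ± 1.15 to 246 ± 9.08 CPM. Of 23 interferon response genes 6 were higher and 12 lower under TMM (-0.30), and 12 and 8 under library totals (0.14). The TMM shares were 26.1% and 52.2%, beside 39.6% and 37.9% of all genes. With library totals they were 52.2% and 34.8%, beside 60.8% and 19.7%. B2M, of class I antigen presentation, fell from 337 ± 4.76 to 189.8 ± 3.22 CPM, OAS3, an RNA sensor, from 43.1 ± 0.0713 to 16.6 ± 1.23 CPM, and STAT2 rose from 30.98 ± 0.801 to 51.6 ± 2.79 CPM.

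Of 16 targets of YAP 6 were higher and 8 lower under TMM (median -0.08), and 11 and 4 under library totals (0.37). The TMM shares were 37.5% and 50%, beside 39.6% and 37.9% of all genes. With library totals they were 68.8% and 25%, beside 60.8% and 19.7%. ANKRD1, a muscle ankyrin protein, fell from 14.8 ± 0.843 to 2.72 ± 0.334 CPM, the matrix protein CCN1 from 523 ± 3.19 to 324 ± 3.06 CPM and the receptor kinase AXL from 1205 ± 21.03 to 756 ± 5.02 CPM, and AJUBA, which inhibits the kinases above YAP, rose from 46.3 ± 1.32 to 105 ± 2.64 CPM. Of 16 SR splicing factors and CLK kinases 3 were higher and 13 lower under TMM (-0.70), and 5 and 10 under library totals (-0.26). SRSF3 fell from 898 ± 8.36 to 339 ± 7.06 CPM, SRSF7 from 309 ± 4.11 to 94.8 ± 2.23 CPM and CLK1, a kinase of SR proteins, from 276, 266 and 264 to 75.3, 70.8 and 72.9 CPM (log2 -1.88 ± 0.03, library totals -1.44). CLK2, which overlaps HCN3, rose from 10.3 ± 1.8 to 31.5 ± 0.996 CPM. Of 5 metallothionein and zinc genes tested 3 were higher and 2 lower under TMM (0.29), and 3 and 0 under library totals (0.73), and the zinc exporter SLC30A1 rose from 33.7 ± 2.57 to 50.7 ± 2.98 CPM.

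Fewer genes passed the test against glucose alone than against glucose with glutamine or no nutrients. Against glucose alone 2146 genes were higher and 2852 lower under TMM, and 2362 and 2634 under library totals, with 65 at least 2-fold higher and 34 at least 2-fold lower under TMM. Against glucose with glutamine 5276 were higher and 5642 lower under TMM, and 5313 and 5603 under library totals, with 835 and 761 at 2-fold or more. These media share the same 3 libraries with NH4Cl, and the comparisons against no nutrients share the same controls.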

How the data were processed

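Poly(A) RNA of H1299 cells was sequenced in 15 libraries, 3 for each of 5 media, with a kit that keeps strand, per the labels' protocols. The authors deposited raw counts per Ensembl gene (58395 IDs, none of them columns outside the series), with no normalization. The submitters' processing notes list GRCh38.p12 as build and, as tools, featureCounts, HISAT2 (2.1.0) and Subread (1.5.1). The handling of strand and of multi-mapping reads is not stated there or in the labels. Names and positions came from GENCODE 29 (58275 IDs matched, 120 did not), and promoters from RefSeq windows on GRCh38.p14.

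Groups followed the sample titles. One fit of all 15 libraries (R 4.3.3, edgeR 4.0.16, TMM, filterByExpr, robust quasi-likelihood F test, 10 residual degrees of freedom, common biological coefficient of variation 0.0221) gave every contrast, two-sided, with Benjamini-Hochberg adjustment over 16889 genes. SE is the Wald standard error of the fitted log2 change, with the variance held to at least that of Poisson counting. The floor of 3 counts and the exact 95% intervals of ratios cover counting error only. The intervals pool the counts of the 3 libraries of a medium and leave out the spread between libraries. PCR copies, which cannot be recognised, would make the true error larger. Replicates were not identical (chi-square per degree of freedom 1.23 to 1.63 over 6 pairs). On simulated counts 29 of 50 genes changed 1.2-fold, 45 of 50 changed 2-fold and 9 of 16376 unchanged genes were called. Few genes were changed there, up and down in equal number, with no shift in composition like that of the real libraries. The simulation therefore cannot show how often calls err where TMM and library totals disagree.

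The comparison, the 46 gene lists (1031 genes), the tests and the naming rule were chosen with earlier results of these data known. Named were the 12 genes with the largest rise and 12 with the largest fall, called the same way under both scalings at a mean of 5 CPM or more without overlap, up to 4 members of each list in its main direction and 2 in the other by smallest p, a panel, members that did not pass, partners at shared loci and members whose promoter held a motif. Some genes that this rule names are not reported here. Alternatives were library totals, size factors and the Wald test of DESeq2 1.42.0, a low-count filter dropped or set to 1 CPM in 3 libraries, the compared media alone, a replicate term, and leaving out each library. A test against a 1.2-fold change was added later, with the data seen.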

Additional observations from a re-analysis of the deposited data

How the results depend on the processing

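Under TMM, 6686 genes were higher and 6404 lower than without nutrients, and leaving out single libraries gave 6404 to 6518 and 6224 to 6318. At 2-fold or more the ranges were 2809 to 2905 and 1590 to 1629, beside 2824 and 1562. Library totals gave 10270 higher and 3327 lower, and 4883 and 598 at 2-fold or more, because that scaling raises every log2 change. Against glucose alone leaving out libraries gave 1777 to 1964 higher and 2418 to 2623 lower, no low-count filter gave 1834 lower, and a test against a 1.2-fold change gave 228 higher and 216 lower. Against glucose with glutamine the ranges were 4955 to 5044 higher and 5353 to 5460 lower, and the 1.2-fold test gave 3045 and 3371. DESeq2 size factors, the DESeq2 Wald test, 1 CPM in 3 libraries and the compared media alone kept all 8 counts within 1.5 times. The share of the 10 most counted genes differed by -6.50 percentage points (-6.53 to -6.48 without single libraries, -8.76 for the 50 most counted genes, -6.64 among protein-coding counts). The heat shock share differed by -8.47 (-8.49 to -8.45, and -8.70 among protein-coding counts) and the mitochondrial share by 0.292 (0.284 to 0.298).

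Same-numbered libraries of both media had residual correlations of 0.0512, -0.0629 and 0.0138, not every library correlated best with its own number, and the numbers were not taken to pair them. With the replicate block 6680 genes were higher and 6398 lower (2824 and 1564 at 2-fold or more), 2133 and 2820 against glucose alone, and 5270 and 5629 against glucose with glutamine.

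Over all genes, 1247 calls had opposite signs under TMM and library totals. Among the named genes, library totals turned the sign of 5 called ones, ACLY (0.066), SLC2A3 (0.25), HK2 (0.28), GLUL (0.29) and GLUD1 (0.18). That scaling also turned named genes that did not pass under TMM, namely EGR2 (0.14), EGR3 (0.13), MITF (0.34), MPC1 (0.37), MT-ND4L (0.42), NDUFS1 (0.41), PRC1 (0.0544), TARS1 (0.44), TFEB (0.0001) and TTK (0.41). TARS1 was at 0.0031 with 1 CPM in 3 libraries and 0.0016 with the compared media alone. Leaving out single libraries turned BTG2 (-0.0085 to 0.27), MITF (-0.29 to 0.0362) and MT-ND4L (-0.0735 to 0.0022). List medians that turned under library totals were those of the unfolded protein response (0.19), fatty acid (0.30), pentose phosphate (0.13), ammonia (0.28), G1 (0.41), proton pump (0.0598), Rag (0.40, and -0.0825 to 0.0187 without single libraries), NRF2 (0.40), hypoxia (0.15), interferon (0.14), YAP (0.37), nuclear RNA (0.38) and pH lists (0.39). Each of these list medians lay below that of all genes under both scalings (0.04 and 0.49). XBP1 also lost its call with DESeq2 size factors, the DESeq2 Wald test and no low-count filter, and 10 more of the named genes only under the 1.2-fold test. A count of 0 in a library allows up to 3 counts, or 0.159 to 0.201 CPM, so levels below that could not be told from 0.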
